A study of Mus musculus with 6 samples.

Results

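The 10 genes described here encode proteins that load, carry, modify or store lipid in astrocytes, and were chosen by name: *Apoe*, *Clu*, *Apod*, *Abca1*, *Abcg1*, *Lcat*, *Lpl*, *Plin2*, *Nr1h2* and *Fabp7*. All 10 were found among the 24421 genes listed. RNA was measured in astrocytes isolated by magnetic-activated cell sorting (MACS) from the hippocampus of adult male C57BL/6 mice, 3 libraries after PBS and 3 after diphtheria toxin (DT), each from a pool of 2 mice. Every mouse in both groups was *Siglech* dtr/dtr, so the DT receptor was placed under the control of *Siglech*, a gene that is nearly restricted to microglia in the brain. PBS or DT (50 μg/kg) was given into the peritoneum and the cells were collected 2 days later. Cells bearing CD11b were removed first and astrocytes were then captured by the surface antigen ACSA-2. No library from mice without the DT receptor was analysed here, so an effect of the toxin itself and of the loss of microglia cannot be told apart. Each pool is 1 sample, so p-values measure the spread between 3 pools per group.

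Neurons take up much of their cholesterol from lipoprotein particles that astrocytes release. The transporter ABCA1 passes cholesterol and phospholipid to lipid-poor apolipoproteins, ABCG1 adds to particles that already hold lipid, LCAT esterifies cholesterol on the particle, and apolipoprotein E is the main protein ligand by which neurons take the particle up. Liver X receptors, one of which is encoded by *Nr1h2*, sense oxidised sterols as partners of retinoid X receptors and switch on *Abca1*, *Abcg1* and *Apoe*. Surplus fatty acid and sterol ester that is not exported is kept in droplets coated by perilipin 2, the product of *Plin2*.

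On mm10, with the coordinates of the GENCODE M21 annotation, all 10 were protein-coding. *Apoe* spans chr7:19696109-19699188 (minus strand) and *Clu* chr14:65968483-65981547 (plus). The transporter genes are at chr4:53030787-53159895 (*Abca1*, minus) and chr17:31057675-31117988 (*Abcg1*, plus). *Plin2* is at chr4:86648386-86670060 (minus), *Fabp7* at chr10:57784881-57788450 (plus) and *Apod* at chr16:31296192-31314808 (minus). *Lcat* and *Lpl* share a chromosome, at chr8:105939551-105943382 (minus) and chr8:68880491-68907448 (plus), and *Nr1h2* is at chr7:44549616-44553951 (minus). Of the 10 genes, *Abcg1* shares its interval with 1 other annotated gene on the same strand and *Lcat* with 1 on the opposite strand, so their reads are less certain, although the authors mapped with strand information. RefSeq promoters on GRCm38.p6, from 250 bases before to 50 after a transcription start, were at hand for 7 of the 10 genes, and the promoters of *Clu*, *Abcg1* and *Lpl* are not shown.

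Liver X receptors bind a direct repeat of the half-site AGGTCA with a gap of 4 bases, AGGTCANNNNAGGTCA. Promoters were searched on both strands for the half-site and for the repeat, which contains it. The exact repeat was in none of the 9 promoters of these 7 genes and in 0.0152% of the 32851 promoters of the table. The closest stretch in the *Abca1* promoter, on its minus strand and starting 67 bases before the transcription start, differed from the repeat by 3 letters, and 21.9% of all promoters held a stretch at least as close. In the promoter at the first of 3 listed starts of *Apoe* the closest stretch differed by 4 letters. A stretch at least as close was held by 76.9% of promoters. These promoters are shown because *Apoe* was the most abundant transcript of all and *Abca1* the main efflux transporter. Capitals mark the closest stretch, on the strand of the gene.
Apoe, chr7:19699139-19699438, minus strand: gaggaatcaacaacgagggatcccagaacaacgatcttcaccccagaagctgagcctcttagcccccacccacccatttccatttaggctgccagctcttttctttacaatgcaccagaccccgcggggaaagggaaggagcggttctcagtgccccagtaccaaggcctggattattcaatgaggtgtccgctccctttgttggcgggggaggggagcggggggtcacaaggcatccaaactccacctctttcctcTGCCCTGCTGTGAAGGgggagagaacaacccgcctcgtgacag
Abca1, chr4:53159846-53160145, minus strand: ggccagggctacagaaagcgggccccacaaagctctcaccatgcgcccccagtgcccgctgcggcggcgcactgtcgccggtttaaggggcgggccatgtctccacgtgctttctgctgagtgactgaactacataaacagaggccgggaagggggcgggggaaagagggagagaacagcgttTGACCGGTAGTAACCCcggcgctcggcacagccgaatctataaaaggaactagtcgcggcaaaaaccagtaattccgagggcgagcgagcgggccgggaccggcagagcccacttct
The half-site was in 16.3% of all promoters and in the promoters of 2 of the 7 genes, in each as its reverse complement TGACCT. Both are shown with the half-site in capitals, which started 218 bases before the start of *Plin2* and 171 bases before that of *Fabp7*.
Plin2, chr4:86670010-86670309, minus strand: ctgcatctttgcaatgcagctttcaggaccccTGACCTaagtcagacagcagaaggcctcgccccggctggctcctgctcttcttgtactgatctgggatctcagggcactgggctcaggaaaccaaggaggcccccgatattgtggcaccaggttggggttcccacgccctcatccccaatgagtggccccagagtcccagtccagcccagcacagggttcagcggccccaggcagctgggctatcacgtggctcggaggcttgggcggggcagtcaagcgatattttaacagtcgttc
Fabp7, chr10:57784673-57784972, plus strand: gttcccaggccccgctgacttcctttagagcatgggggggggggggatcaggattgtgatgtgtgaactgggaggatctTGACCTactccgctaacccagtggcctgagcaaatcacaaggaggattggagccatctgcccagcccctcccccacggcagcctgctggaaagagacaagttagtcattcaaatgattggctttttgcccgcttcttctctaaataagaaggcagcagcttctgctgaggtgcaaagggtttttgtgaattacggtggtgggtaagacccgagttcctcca
Such a match is a description of letters, and binding was not measured.

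Levels are compared between genes in TPM, a share of all transcripts that takes transcript length into account. *Apoe* ranked highest of all listed genes in each of the 6 libraries, at 44779.6, 45012 and 45913 TPM after PBS and 45961, 41731 and 41502 TPM after DT. It made up 4.53% ± 0.06 of all TPM after PBS and 4.32% ± 0.25 after DT (SD, n = 3). *Clu*, which encodes the secreted chaperone clusterin, also called apolipoprotein J, stood between rank 5 and rank 8. Together, *Apoe* and *Clu* accounted for 97.0% ± 0.10 of the TPM of the 10 genes after PBS and 96.9% ± 0.04 after DT (SD, n = 3).

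Below these came *Fabp7*, whose product carries fatty acids in the cytosol of astrocytes and their precursors, from 803 to 964 TPM over the 6 libraries, and *Lcat*, from 383 to 429.9 TPM. *Abca1* lay between 124 and 158 TPM. *Nr1h2* lay between 76.9 and 94.1 TPM and *Plin2* between 27.8 and 33.4 TPM. *Abcg1* was far below the other efflux transporter, from 5.73 to 9.28 TPM, and *Lpl*, which encodes the lipase that releases fatty acids from particles, was the lowest at 0.453 to 1.85 TPM. The mean of *Apoe* exceeded that of *Lpl* 36694-fold. The order of neighbours was the same in every library except for *Nr1h2* and *Apod*, whose ranges overlapped: *Nr1h2* was above *Apod* in 4 of 6 libraries. All other neighbours in the order were separated by ranges that did not overlap.

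**Figure D1:**
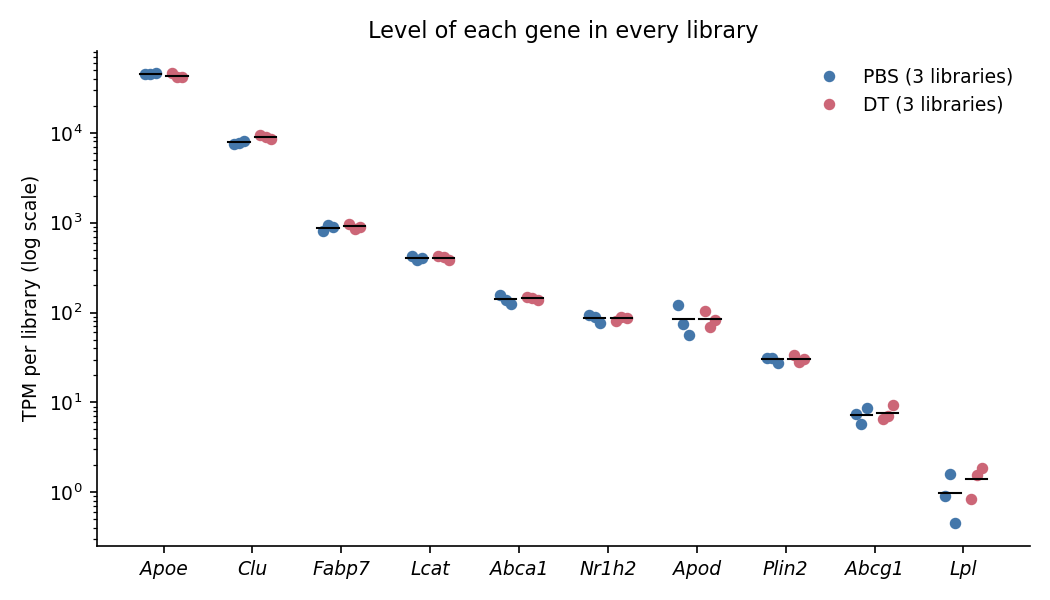
TPM of each gene in every library, on a log scale, with genes ordered by their mean over the 6 libraries; points are libraries and lines are group means. The group means keep the same order in both groups, although the libraries of *Nr1h2* and *Apod* overlap. Values run from *Apoe* at 41502 TPM or more to *Lpl* at 1.85 TPM or less.

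Differences between the groups were tested on log2(CPM + 0.1), where CPM is the read count scaled to library size without regard to length, with limma over the 15137 genes whose mean reached 0.5 CPM. All 10 genes passed this filter. At an adjusted p-value under 0.05, limma called 0 of the 10 higher and 0 lower, and edgeR and DESeq2 on the recovered reads called 0 as well. Of all genes tested, 0.713% were called, 0.555% as higher and 0.159% as lower. At an unadjusted p-value under 0.05, 1 of the 10 passed, which was *Clu*, beside 10.4% of all genes. The median log2 fold change was 0.0385 over the 10 genes and -0.00524 over all genes tested. In size, without regard to sign, the median was 0.0449 for the 10 genes and 0.11 for all. Log2 fold changes lay within 0.25 of 0 for 9 of the 10 genes, with *Lpl* the exception, and for 77.3% of all genes.

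Among the proteins of the particle, *Clu* was read at 4740.4, 4729 and 5047 CPM after PBS and at 5936, 5406 and 5212 CPM after DT. The lowest DT library exceeded the highest PBS library, which holds for 8.75% of all genes tested in this direction and for 16.3% in either. The log2 fold change was 0.19 ± 0.08 (SE; limma, adjusted p = 0.473), a 1.14-fold difference with a 95% interval from 1.003 to 1.29. It did not pass the threshold, for which at this standard error a log2 fold change of 0.46 would have been needed. Among the alternatives it passed under quantile normalization alone (limma, log2 fold change 0.22, adjusted p = 0.00852, the lowest of a range that reached 1). That method sets values by rank, and *Clu* stood between rank 7 and rank 9 in CPM, so few values were open to it. Its standard error there was 0.03. Other cell types also transcribe *Clu*, among them cells of the choroid plexus and the ependyma. The 10 choroid plexus markers summed to between 33.0 and 79.7 TPM after PBS and between 84.2 and 109 TPM after DT, and the 10 ependymal markers to between 667 and 831 TPM and between 893 and 1492 TPM. All 10 of either list had a log2 fold change above 0, 0 were called by limma and 7 of each passed an unadjusted p-value under 0.05, and no marker of either list was at 0 in all libraries of a group. Their part in the level of *Clu* was not tested.

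*Apoe* was at 19818, 19233 and 19924 CPM after PBS and at 20248, 17672 and 17782 CPM after DT. DT replicate 1 was the highest of the 6 libraries and the other two DT libraries were the lowest, so the groups overlapped. The log2 fold change was -0.0851 ± 0.10 (SE; limma, adjusted p = 0.822), with a 95% interval of the fold from 0.802 to 1.11.

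DT replicate 1 was the highest library for both *Apoe* and *Clu*, and the ratio of both genes within a library does not depend on how libraries are scaled. In TPM, *Apoe* exceeded *Clu* by 5.94, 5.78 and 5.61 times after PBS and by 4.85, 4.64 and 4.85 times after DT. The 3 ratios after DT lay closely together and all under those after PBS. The mean ratio was 5.77 ± 0.17 after PBS and 4.78 ± 0.12 after DT (SD, n = 3), a difference of -0.27 on the log2 scale (exact permutation test, p = 0.1, two-sided, the lowest value possible with 3 libraries a group). This ratio was chosen after the values had been seen. Any ratio without overlap gives this p-value, so the test adds nothing to the lack of overlap. Of the 45 ratios that can be formed from the 10 genes, 3 did not overlap between the groups, and all 3 were among the 9 that contain *Clu*, over *Fabp7*, over *Lcat* and under *Apoe*. Among ratios of all tested genes read in every library, 16.5% did not overlap, and 34.5% of those that contain *Clu*, so neither share was above its background. *Clu* exceeded *Fabp7* by 9.39, 8.37 and 9.06 times after PBS and by 9.84, 10.4 and 9.58 times after DT. *Clu* exceeded *Lcat* by 17.5, 20.3 and 20.4 times after PBS and by 22.4, 21.7 and 22.1 times after DT. Since *Clu* enters all 3, these are not independent.

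**Figure D2:**
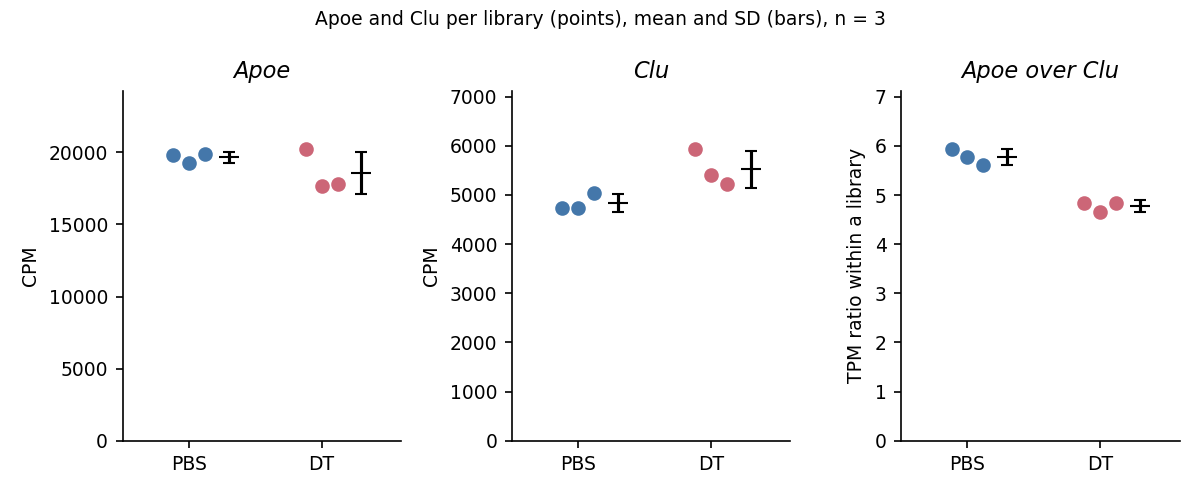
CPM of *Apoe* and of *Clu*, and the ratio of their TPM within a library; points are the 3 libraries of a group, the bar beside them is the mean with the SD, and axes start at 0. The ratio lies between 5.61 and 5.94 in the PBS libraries and between 4.64 and 4.85 in the DT libraries, while the *Apoe* points of the groups overlap.

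*Apod* encodes a lipocalin that binds small lipids such as arachidonic acid and is also transcribed by oligodendrocytes and by cells of vessels and meninges. It was the most variable of the better covered genes, at 86.1, 51.5 and 39.96 CPM after PBS and at 74.1, 46.8 and 57.3 CPM after DT. Replicate 1 was the highest library in both groups, and the groups overlapped throughout. The log2 fold change was 0.0554 ± 0.27 (SE; limma, adjusted p = 0.966), with a 95% interval of the fold from 0.683 to 1.58. The 10 oligodendrocyte markers summed to 457, 424 and 365 TPM after PBS and to 333, 348 and 247 TPM after DT, and the 10 markers of pericytes and fibroblasts to 1167, 833 and 1253 TPM and to 998, 1104 and 1369 TPM. The 10 endothelial markers summed to 805, 907 and 1265 TPM after PBS and to 681, 710.0 and 821 TPM after DT. No marker of these lists was called by limma or was at 0 in all libraries of a group. Of the oligodendrocyte markers 9 of 10 had a log2 fold change below 0, of those of pericytes and fibroblasts 4 of 10, and of the endothelial markers 10 of 10. The part of these cells in the level of *Apod* was not tested.

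The efflux transporters did not pass the test in either direction. *Abca1* was at 563, 474 and 434 CPM after PBS and at 531, 502 and 477 CPM after DT. All DT libraries lay inside the range of the PBS libraries. Its log2 fold change was 0.0446 ± 0.10 (SE; limma, adjusted p = 0.911), and the 95% interval of the fold ran from 0.887 to 1.199. *Abcg1* was at 15.2, 11.2 and 17.2 CPM after PBS and at 13.1, 13.6 and 18.2 CPM after DT, with a log2 fold change of 0.0453 ± 0.19 (SE; limma, adjusted p = 0.961) and an interval from 0.767 to 1.39. The groups overlapped for both transporters, and *Abca1* was the better measured, with 9442 to 15720 reads per library against 300 to 417 for *Abcg1*.

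The enzymes that act on the particle differed widely in level. *Lcat* was at 188 ± 14.4 CPM after PBS and 188 ± 10.9 CPM after DT (SD, n = 3), with a log2 fold change of 0.00131 ± 0.07 (SE; limma, adjusted p = 0.997) and an interval of the fold from 0.891 to 1.12. *Lpl* was read 28, 73 and 14 times after PBS and 28, 65 and 58 times after DT, which is 1.29, 2.20 and 0.643 CPM and 1.22, 2.11 and 2.53 CPM. The lowest and the highest raw count of *Lpl* both came from the PBS group, but in CPM the highest was DT replicate 3 at 2.53. Its log2 fold change of 0.57 was the largest of the 10 genes and had the largest standard error, 0.45 (limma, adjusted p = 0.715). The 95% interval of the fold, from 0.726 to 3.02, included a 2-fold difference, which would not have been detectable with these libraries.

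The remaining genes had smaller standard errors than *Lpl*, *Apod* and *Abcg1*. *Nr1h2* was at 59.9 ± 6.60 CPM after PBS and 58.5 ± 1.66 CPM after DT (SD, n = 3), and the interval of its fold ran from 0.852 to 1.13 (limma, log2 fold change -0.0281, adjusted p = 0.947). *Plin2* was at 19.4 ± 1.34 CPM after PBS and 19.6 ± 2.12 CPM after DT (SD, n = 3), with an interval from 0.844 to 1.201 (limma, log2 fold change 0.00927, adjusted p = 0.984). *Fabp7* was at 229 ± 13.8 CPM after PBS and 234 ± 18.4 CPM after DT (SD, n = 3), with an interval from 0.908 to 1.15 (limma, log2 fold change 0.0325, adjusted p = 0.920). For each of these 3 genes the groups overlapped. Over the 10 genes, 8 intervals lay wholly within a 1.5-fold difference in either direction, beside 66.6% of all genes tested, the exceptions being *Apod* and *Lpl*. Within a 2-fold difference lay 9, all but that of *Lpl*, beside 86.0% of all genes.

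**Figure D3:**
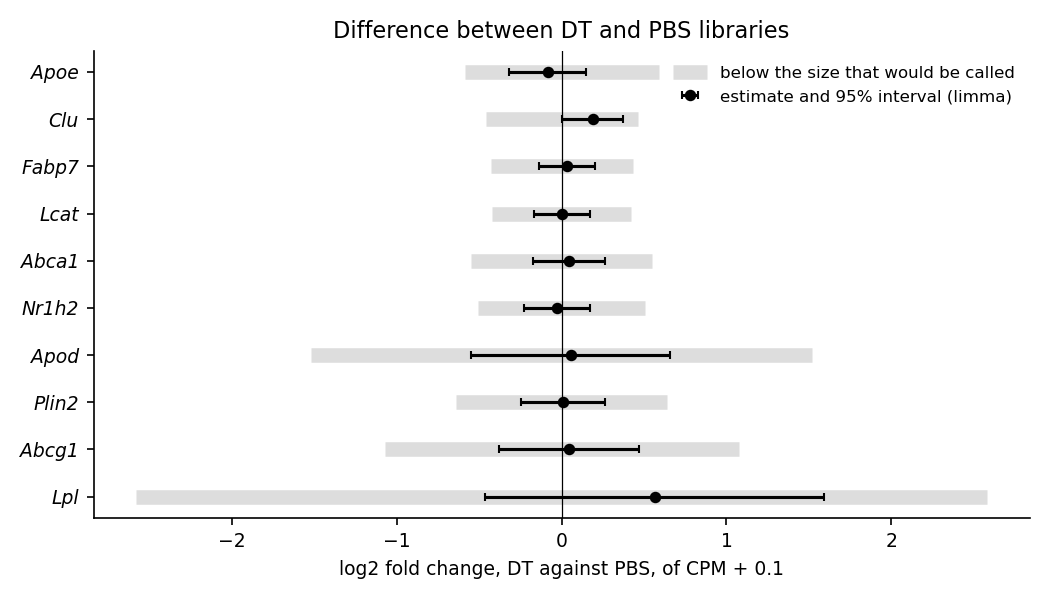
Log2 fold change of CPM + 0.1 between DT and PBS for each gene, with its 95% interval from limma (n = 3 per group); the grey band marks changes too small to pass the threshold at that gene's standard error. All 10 points lie inside their grey bands, and the intervals of *Apod* and *Lpl* are the widest.

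The spread between pools of mice holds counting error and all other differences between them. The coefficient of variation (CV) of *Apoe* between the 3 libraries of a group was 1.89% after PBS and 7.84% after DT, where counting of its 407692 to 638018 reads per library would give 0.144% and 0.147%. For *Clu* the CV was 3.73% after PBS and 6.79% after DT, with 0.29% and 0.269% from counting. The spread was closest to the counting error for *Nr1h2* after DT, 1.09 times as large, and farthest from it for *Apoe* after DT, 53.5 times as large. *Lpl* had the largest counting error, 20.1% after PBS and 15.1% after DT, and also the largest spread after PBS, 56.8%. Counting errors do not include errors from amplification. Relative to its median over the 10 genes in a library, the ratio of TPM to CPM varied between libraries by at most 0.488% for 9 genes and by 3.07% for *Lpl*. For these 9 genes the 2 units therefore differed mainly by a factor that the genes of a library share. Without this step the ratio varied by 4.10% to 6.94%. The log2 fold change of *Lcat* was 0.00131 in CPM and 0.0140 in TPM.

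**Figure D4:**
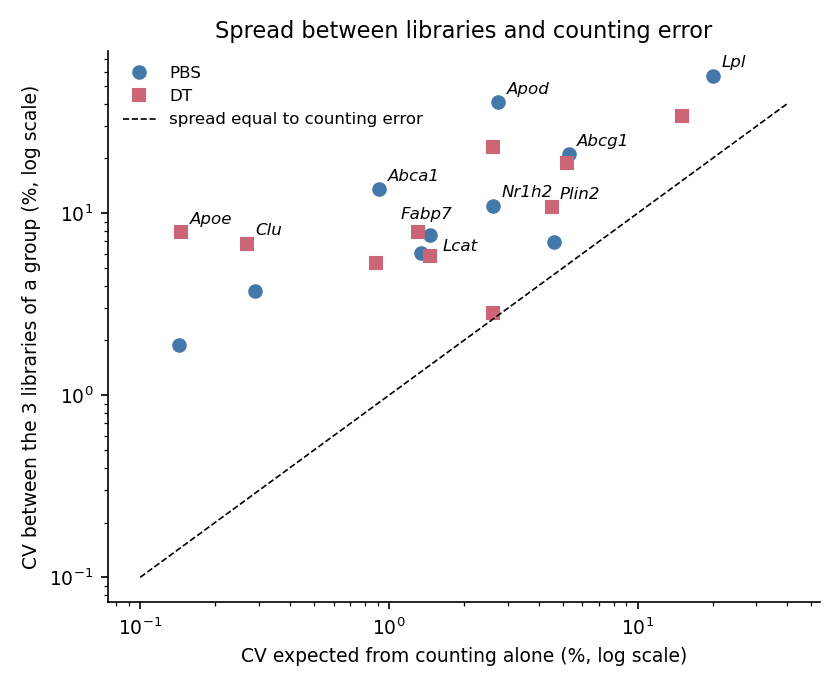
Coefficient of variation between the 3 libraries of a group against the one expected from read counts alone, both in percent on log scales, for each gene after PBS (circles) and after DT (squares). All points lie on or above the dashed line of equality, *Nr1h2* after DT closest to it and *Apoe* after DT farthest from it.

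A further 97 genes of lipid transport, sterol sensing and lipid storage were listed by role, of which 87 passed the filter. Limma called 0 of them higher and 0 lower, edgeR called 0, and DESeq2 called 0 higher and 1 lower, where DESeq2 called 1.5% of all genes higher and 0.647% lower. At an unadjusted p-value under 0.05, 6 of the 87 were higher and 9 lower, beside 5.91% and 4.51% of all genes tested. Their median log2 fold change was -0.0242, with 42 genes above 0 and 45 below. The gene called by DESeq2 was *Abca8a*, a transporter related to *Abca1*, at 55.6, 57.2 and 51.6 CPM after PBS and at 39.8, 44.2 and 43.7 CPM after DT. It was named after its values had been seen. All DT libraries lay below all PBS libraries, with a log2 fold change of -0.36 ± 0.08 (SE; limma, adjusted p = 0.107). With DESeq2 the adjusted p-value was 0.0111. The part of other cell types in the level of *Abca8a* was not tested.

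Among receptors and partners of the liver X pathway, 13 of 14 listed genes were tested, and their median log2 fold change was -0.0242. *Srebf1*, the transcription factor of fatty acid synthesis and the most abundant of the group, was at 438 ± 76.2 CPM after PBS and 463 ± 23.3 CPM after DT (SD, n = 3), with a log2 fold change of 0.0948 ± 0.12 (SE; limma, adjusted p = 0.829). *Nr1h3*, which encodes the other liver X receptor and was named after its values had been seen, was at 11.6, 12.5 and 11.0 CPM after PBS and at 14.5, 12.998 and 14.4 CPM after DT. Its groups did not overlap, and its log2 fold change was 0.25 ± 0.11 (SE; limma, adjusted p = 0.478). Of the 13 genes, *Nr1h3* was the 1 that did not overlap upwards, and *Rxrb*, *Nr1d1* and *Ncor1* did not overlap downwards (limma, log2 fold changes -0.10, -0.16 and -0.0837, adjusted p = 0.694, 0.435 and 0.653), beside 8.75% of all genes upwards and 7.57% downwards. Per length, *Nr1h3* was between 17.9 and 23.6 TPM over the 6 libraries and so below *Nr1h2* in each.

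Of the 13 lipoprotein receptors, 13 were tested, with a median log2 fold change of 0.0625. *Lrp1*, a large endocytic receptor for particles with apolipoprotein E, was the most abundant at 1904 ± 186 CPM after PBS and 2018 ± 172 CPM after DT (SD, n = 3; limma, log2 fold change 0.0854, adjusted p = 0.802). The 11 ABC transporters had a median of -0.0456. *Abca2*, with the highest mean CPM of these, had a log2 fold change of -0.0456 (limma, adjusted p = 0.820). In TPM it lay below *Abcd3* and *Abcd2* in every library. *Soat1*, which esterifies cholesterol for storage, led the 15 tested genes of sterol transport and esterification, whose median was -0.0595, and had the same log2 fold change of -0.0595 (limma, adjusted p = 0.850). *Acsl6*, an acyl-CoA synthetase, led the 19 tested genes of the list for lipid droplets, which also held other such synthetases. The median of that list was -0.0544, and *Acsl6* had a log2 fold change of -0.15 (limma, adjusted p = 0.556). *Slc27a1*, a fatty acid transport protein, had a log2 fold change of -0.15 (limma, adjusted p = 0.436), in a group of 8 tested genes with a median of 0.0321, and all its DT libraries lay below all its PBS libraries. *Pla2g7*, a phospholipase carried on lipoproteins, was at 2378 ± 229 CPM after PBS and 1997 ± 54.9 CPM after DT (SD, n = 3), and its groups did not overlap (limma, log2 fold change -0.25, adjusted p = 0.341). It was grouped with the partners of lipoprotein lipase, of which 3 of 6 were tested, with a median of -0.0476. Of the others, *Angptl4* encodes a secreted inhibitor of the lipase. It was at 31.6, 24.8 and 25.5 CPM after PBS and at 34.9, 36.7 and 35.4 CPM after DT, without overlap (limma, log2 fold change 0.39, adjusted p = 0.219). *Lmf1*, needed for the folding of the lipase, had a log2 fold change of -0.0476 (limma, adjusted p = 0.866). Over all 87 related genes tested, 8 did not overlap upwards and 12 downwards, beside 8.75% and 7.57% of all genes tested.

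*Ttr*, which encodes the transport protein transthyretin and is among the most abundant transcripts of the choroid plexus, led the group of apolipoproteins and transfer proteins. It was at 152, 807 and 33.4 CPM after PBS and at 1416, 917 and 489 CPM after DT. Its levels varied by more within a group than those of any of the 10 genes, and the groups overlapped. The log2 fold change was 2.42 ± 0.96 (SE; limma, adjusted p = 0.432), where the median of the 5 tested genes of the group was 0.0576. It was 1.29 without PBS replicate 3, 3.59 without PBS replicate 2, and 1.51 with edgeR and with DESeq2, and it passed the threshold in none of these. The sums of the choroid plexus markers are given with *Clu*, and their part in the level of *Ttr* was not tested.

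Beside *Ttr*, the plot of related genes labels those past 0.6 on the log2 scale, which were picked out by their values. *Cd36*, a scavenger receptor for fatty acids and oxidised lipoproteins, was barely detected, at 0.23, 0 and 1.01 CPM after PBS and at 1.22, 1.755 and 0.916 CPM after DT (limma, adjusted p = 0.426). *Cyp27a1*, the sterol 27-hydroxylase, was lower in every DT library, at 3.22, 2.77 and 2.71 CPM after PBS against 1.40, 1.85 and 1.40 CPM after DT (limma, log2 fold change -0.87, adjusted p = 0.215). *Dgat2*, which makes triacylglycerol for droplets, was at 7.505, 11.0 and 6.84 CPM after PBS and at 11.2, 11.3 and 17.3 CPM after DT (limma, log2 fold change 0.65, adjusted p = 0.380). None of these passed the threshold.

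**Figure D5:**
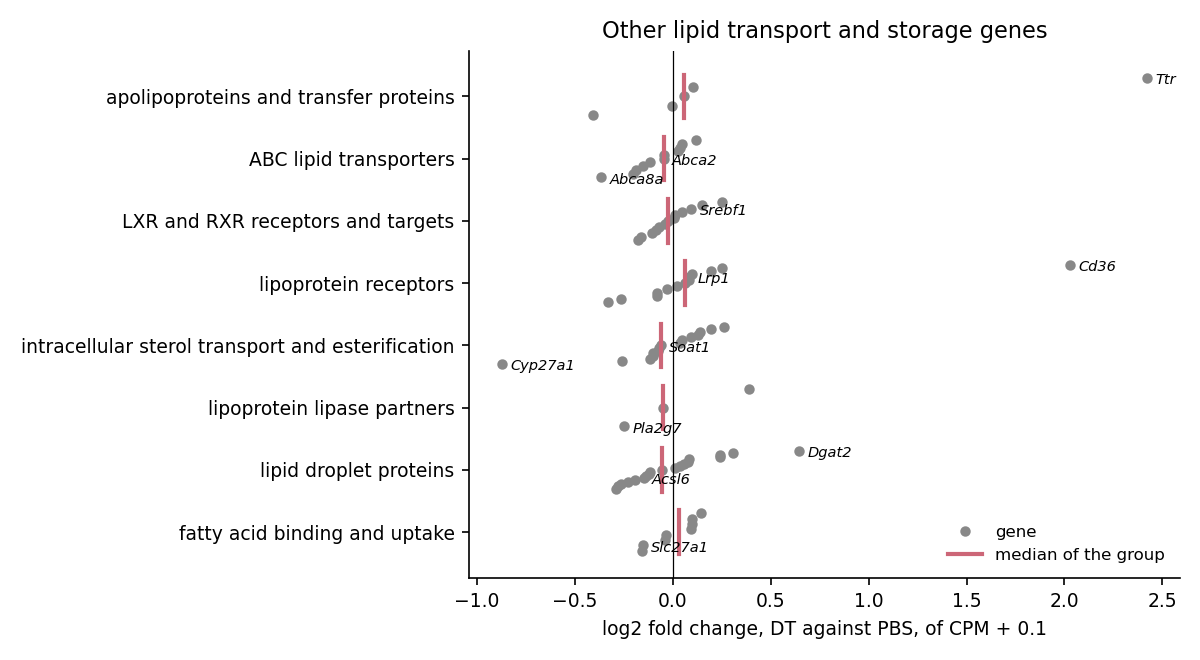
Log2 fold change of CPM + 0.1 between DT and PBS for the 87 tested genes of related roles. Points are genes and red lines are medians of a role. Labels name the gene with the highest mean CPM in each role, *Abca8a* and the genes past 0.6 in either direction. All medians lie between -0.0595 and 0.0625, and *Ttr* at 2.42 lies farthest from 0.

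The recovered reads per library numbered 21704891 to 32933975. The 15 astrocyte markers summed to between 32721 and 34431 TPM after PBS and between 32541 and 34974 TPM after DT, with 0 called. Microglia also transcribe *Apoe*, *Abca1*, *Abcg1*, *Plin2* and *Lpl*. The 15 microglia markers summed to between 239.8 and 289.9 TPM after PBS and between 139 and 152 TPM after DT. All 15 had a log2 fold change below 0, 9 were called lower and 0 higher, and *Siglech* was at 0 in every DT library. The paper reports that Siglec-H is already much reduced in *Siglech* dtr/dtr microglia, the genotype of both groups. The 9 markers of border-associated macrophages, which also transcribe *Apoe*, summed to between 20.9 and 37.0 TPM after PBS and between 68.6 and 89.9 TPM after DT. Of these, 7 were tested, 3 were called higher, and none was at 0 in all libraries of a group. How much of any of the 10 transcripts came from these cells was not tested. In these bulk libraries, fewer cells of a type and less RNA per cell cannot be told apart.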

How the data were processed

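RNA was measured in 3 PBS and 3 DT libraries, grouped by their titles. Per the labels and methods, the authors trimmed reads with Trim Galore 0.5.0, mapped them to mm10 with HISAT2 2.1.0, removed ribosomal reads with bedtools 2.25.0, quantified genes with StringTie 1.3.5 and compared groups with edgeR 3.24.3. The authors deposited CPM as a signal scaled to library sizes adjusted by factors from 0.974 to 1.02, and TPM. The deposited p-values, q-values and fold changes of their own comparison were not used. Gene names turned into dates numbered 27. Whole reads, within a tolerance of 0.05 reads, were recovered from 100% of the CPM values.

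Here, genes averaging 0.5 CPM or more were tested as log2(CPM + 0.1) in limma 3.58.1 (R 4.3.3), letting the variance follow the mean level. Tests were two-sided, and p-values were adjusted over all 15137 genes by the Benjamini-Hochberg method. CPM had been assumed to be plain, and its scaling was kept. Fold changes of low genes depend on the pseudocount. The log2 fold change of *Lpl* was 0.57 here, 0.43 with a pseudocount of 0.5 and 0.34 with 1. With edgeR it was 0.48 and with DESeq2 0.49. Alternatives were edgeR 4.0.16 (quasi-likelihood) and DESeq2 1.42.0 on the recovered reads, other pseudocounts, filters, scalings, TPM, no trend, the replicate number as a block, and each library left out. The scripts were tested on simulated data.

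The 10 genes and all lists were chosen with earlier results of these data known. Named from the related list were genes past the threshold, of which there were none, and the gene with the highest mean CPM in each role. Since CPM disregards transcript length, this gene need not be the highest of its role in TPM. *Abca8a*, *Nr1h3*, *Rxrb*, *Nr1d1*, *Ncor1*, *Angptl4*, *Lmf1*, *Cd36*, *Cyp27a1* and *Dgat2* were named outside this rule, after their values were seen. Markers were named where at 0.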

Additional observations from a re-analysis of the deposited data

How the results depend on the processing

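When single libraries were dropped in turn, giving 6 fits, log2 fold changes ranged from -0.19 to 0.36 for *Apod* (below 0 without PBS replicate 2, PBS replicate 3 or DT replicate 1), -0.0396 to 0.15 for *Abca1* (PBS replicate 3), -0.13 to 0.18 for *Abcg1* (PBS replicate 2, DT replicate 3), -0.0496 to 0.0591 for *Lcat* (PBS replicates 2 and 3, DT replicate 1), -0.0717 to 0.0822 for *Plin2* (PBS replicate 3, DT replicate 1), -0.12 to 0.0436 for *Nr1h2* (above 0 without PBS replicate 1), -0.0290 to 0.0813 for *Fabp7* (PBS replicate 1, DT replicate 1), -0.11 to 0.0161 for *Soat1* (PBS replicate 1) and -0.0475 to 0.21 for *Srebf1* (PBS replicate 3). *Ttr* ranged from 1.29 (without PBS replicate 3) to 3.59 (without PBS replicate 2), *Clu* stayed between 0.13 and 0.23, *Lpl* between 0.14 and 0.96 and *Apoe* between -0.15 and -0.0509 in these fits.

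Quantile normalization gave the only call among the 10 genes, 1 higher, *Clu* at 0.22 (adjusted p = 0.00852, within 0.00852 to 1 over the alternatives). It set *Apoe* to a log2 fold change of 0, since *Apoe* had the same rank in CPM in every library, and *Plin2* to -0.0111. The ranks of *Clu*, between 7 and 9, left it few values as well. DESeq2 gave the only call among the related genes, 1 lower. *Lpl* has no value at a mean CPM of at least 2. Over all genes, 84 were called higher and 24 lower, 227 and 98 with DESeq2, 35 and 11 without the variance trend, 39 to 72 and 9 to 20 without 1 library, and 5 and 1 without a filter, where the standard error of *Apoe* was 7.17.

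The deviations of same-numbered libraries correlated at 0.115, 0.0105 and 0.118, and those of differently numbered ones between -0.124 and 0.0115. Replicates 1 and 3 thus gave the highest values. The paper states that the pools came from independent experiments, and the labels do not say whether the numbers mark them. Whether libraries are paired was left undecided, and the main fit held no block. A replicate block gave 79 higher and 30 lower calls over all genes and 0 among the 10, and *Clu* was at 0.19 (adjusted p = 0.274). With the block the standard error fell for all of the 10 genes but *Fabp7*, from 0.10 to 0.06 for *Apoe* and from 0.27 to 0.14 for *Apod*.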
